A study of Homo sapiens with 6 samples.

Results

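Genes of plasminogen activation, of the tissue factor pathway and of thrombospondin 1 were compared between luminal (pLUM) and luminobasal (pLB) breast cancer cells. The set held 9 named genes (PLAU, PLAUR, PLAT, SERPINE2, THBS1, F3, TFPI, TFPI2 and PLG) of 25940 genes on the array. Every non-control spot that carried one of these names was taken, which gave 13 probes of 34127. A probe is a DNA oligonucleotide of 60 bases fixed to the array.

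Both lines were derived from the human luminal breast cancer subline T47Dco, grown as xenografts in ovariectomized NSG mice. By the methods, pLUM cells came from a tumor grown with 17β-estradiol (E) and were sorted as CLD3+ CD49f- cells, although a legend of the study describes the sort of both lines from a tumor grown with E and progesterone. pLB cells came from a tumor grown with E and progesterone and were sorted as CLD3- CD49f+ cells. Each line is a single derivation. For the arrays, 3 pLUM samples had received 1 nM E for 72 h, and 3 pLB samples were kept without estrogen (estrogen withdrawn, EWD), so that the line and the hormone cannot be told apart. Cells of both lines were stained and sorted for the cytokeratin CK5 before RNA extraction, but which of the CK5 fractions went onto the arrays is not given. The samples were separate sorts of a line, so p-values measure the spread between sorts.

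The 75th percentile of intensity was between 449 and 869 on the 6 arrays, and 21285 to 22775 probes per array were well above background. The number of arrays limits the precision. Correlations over probes were 0.984 to 0.991 among pLUM arrays, 0.972 to 0.989 among pLB arrays and 0.780 to 0.806 between the lines. Of the fixed line markers, 4 of 4 luminobasal genes were higher in pLB and 5 of 5 luminal genes were lower. Over all genes tested, 22.7% were called higher and 23% lower. ITGA6 (CD49f), CLDN3 and KRT5 encode proteins on which the cells were sorted, and the study had reported all of these genes as line markers. These calls are thus no independent check of the lines. For KRT5, which encodes CK5, pLB exceeded pLUM at least 1754-fold, or at least 263-fold with background corrected by normexp. The 3 pLUM arrays and pLB replicate 1 shared a slide, and pLB replicates 2 and 3 were on another.

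Plasmin is the protease that dissolves fibrin and cleaves matrix proteins. It is formed from the zymogen plasminogen by urokinase, which acts at the cell surface on its receptor, and by tissue plasminogen activator. Serpins block both activators. Tissue factor starts coagulation by binding factor VII and is restrained by tissue factor pathway inhibitor, while thrombospondin 1 is a secreted matrix glycoprotein that binds cell surface receptors and matrix proteases. In breast cancer the urokinase system is known for its link to invasion.

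Sequences of probes are shown for 4 genes because each array value below is the light from RNA bound to such a sequence, and because the probes of PLAU and THBS1 are the ones that gave a second reading of the same gene. They are written 5′ to 3′ in lower case, with hg19 positions from the deposited files. The PLAU probe lies at chr10:75674614-75674673 on the plus strand, the PLAUR probe at chr19:44169498-44169557 on the minus strand and the THBS1 probe at chr15:39874546-39874605 on the plus strand. The 60 bases of the SERPINE2 probe span 1699 bases of the minus strand (chr2:224840597-224842295), so that the probe joins separate stretches of the genome. Bases G and C made up 26 of 60 positions in the PLAU probe, 33 in the PLAUR and THBS1 probes and 25 in the SERPINE2 probe.
PLAU: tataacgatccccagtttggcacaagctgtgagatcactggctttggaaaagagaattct
PLAUR: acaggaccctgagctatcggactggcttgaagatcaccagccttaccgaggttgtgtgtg
SERPINE2: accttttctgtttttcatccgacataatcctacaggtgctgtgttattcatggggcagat
THBS1: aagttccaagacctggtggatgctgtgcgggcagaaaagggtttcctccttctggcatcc

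Of the 9 genes, 6 had a signal well above background on 3 or more of the 6 arrays and could be tested. PLAU, PLAT, PLAUR, SERPINE2 and F3 were called higher in pLB, and none was called lower. A call required a Benjamini-Hochberg adjusted p under 0.05 in limma and a difference of at least 2-fold. THBS1 differed by less than 2-fold and was not called, while TFPI, TFPI2 and PLG were not tested. Over all 17670 genes tested, 22.7% were called higher in pLB and 23% lower. PLAT and SERPINE2 passed the filter through the pLB arrays alone, so that they had to differ, and with the filter set at all 6 arrays PLAU and F3 were the 2 genes called. Over the 8 tested probes of these genes, 6 were called higher, against 21.9% of all 23105 probes tested, and none lower, against 23.7%. The PLAT and SERPINE2 probes and the PLAU probe for NM_001145031 passed through the pLB arrays alone, so they had to come out higher. The PLAUR probe passed with 1 pLUM array beside the 3 pLB arrays. With the filter set at all 6 arrays, probes of PLAU, F3 and THBS1 were tested and 2 were called higher. At that filter, 3741 of 18866 probes of the whole array were called higher. Signals are given as log2 of the intensity over the 75th percentile of the array, and differences are pLB minus pLUM on that scale. The set was assembled with earlier results of these arrays known, and its count is a description.

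**Figure D1:**
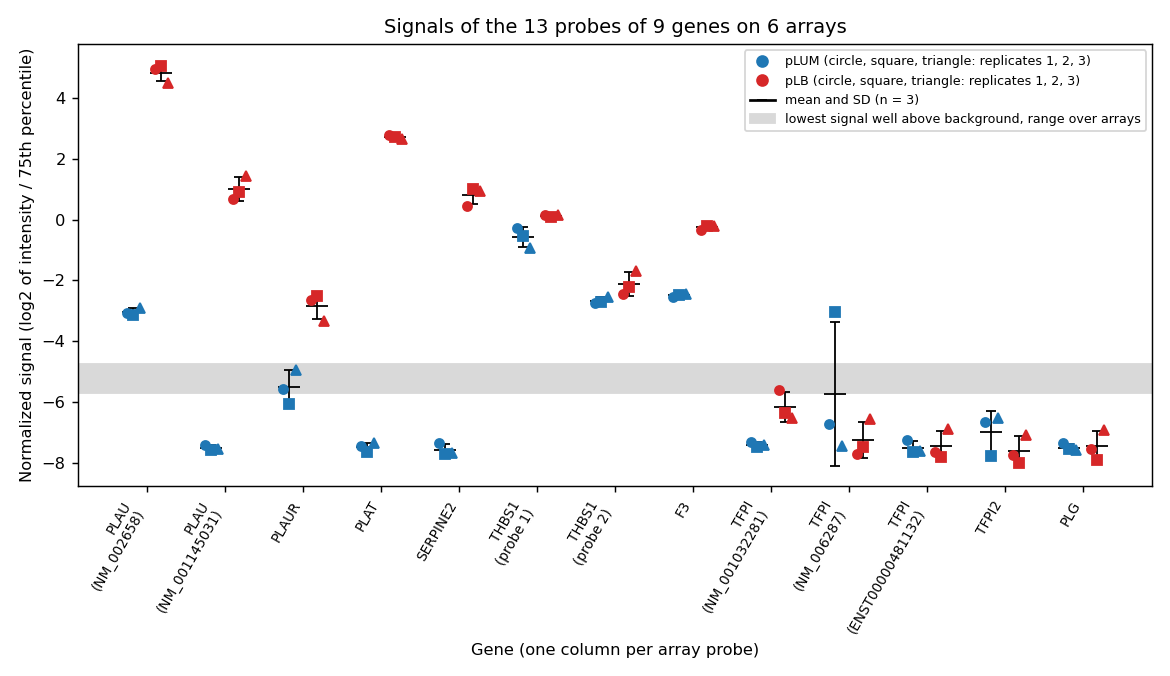
Normalized signal (log2 of intensity over the 75th percentile) of each of the 13 probes on the 3 pLUM and 3 pLB arrays, with black bars for the mean and SD (n = 3) and a grey band for the range over arrays of the lowest signal well above background. PLAT, SERPINE2 and one PLAU probe lay under the band in pLUM and above it in pLB, TFPI2, PLG and the TFPI probes lay under it or at it except for 1 pLUM array, and the THBS1 and F3 probes lay above it in both lines.

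PLAU encodes urokinase, the secreted protease that converts plasminogen at the cell surface. Its main probe, at chr10:75677050-75677109 on the plus strand (transcript NM_002658), gave -3.06, -3.15 and -2.91 in pLUM and 4.94, 5.03 and 4.50 in pLB. The groups did not overlap, and the gap between them was far wider than the spread within either. The mean was -3.04 ± 0.12 in pLUM and 4.83 ± 0.28 in pLB (SD, n = 3 each). The difference was 7.87 (SE 0.20, 95% interval 7.41 to 8.33, limma adjusted p = 3.85e-07), which is a 234-fold higher signal. PLAU was well above background on all 6 arrays with this probe, so pLUM cells had a measurable low level. With background corrected by normexp, which adds an offset to every signal, the difference was 6.69, or 103-fold.

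The other PLAU probe, whose sequence is given above (transcript NM_001145031), gave no pLUM signal well above background. Its signals were -7.41, -7.57 and -7.56 in pLUM and 0.67, 0.89 and 1.44 in pLB. The pLB mean was 1.00 ± 0.40 (SD, n = 3), and PLAU was at least 83.2-fold higher in pLB by this probe (limma adjusted p = 4.49e-07). This bound sets the pLB mean against the lowest signal well above background on each pLUM array, a rule used for every such probe here. A p-value printed beside such a bound belongs to the fitted difference, which lies above the bound. It was at least 12.6-fold with normexp. Both PLAU probes were higher in pLB, and they differed in whether pLUM had a level above background. This probe was also dimmer in pLB, with a mean of 1.00 against 4.83 for the main probe. A low pLUM level could thus lie under its background.

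PLAT encodes tissue plasminogen activator, the fibrin-bound activator best known from clot lysis. Its probe, at chr8:42032812-42032871 on the minus strand (NM_000930), gave -7.45, -7.65 and -7.36 in pLUM and 2.77, 2.72 and 2.64 in pLB. No pLUM array was well above background, and all 3 pLB arrays were. The pLB mean was 2.71 ± 0.06 (SD, n = 3), and PLAT was at least 272-fold higher in pLB (limma adjusted p = 1.44e-07). The bound fell to at least 41.3-fold with normexp.

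Agilent placed the PLAU main probe and the PLAT probe at 10 spots each, which gives the technical error within an array. The SD over PLAU spots was between 0.03 and 0.14 on each of the 6 arrays, and all 10 spots were well above background on every array. For PLAT the SD was 0.04 to 0.05 on the pLB arrays, with 10 of 10 spots well above background. On the pLUM arrays 0 of 9 or 10 PLAT spots passed, and 1 of the 186 spots of the whole set, a PLAT spot of pLUM replicate 2, was left out as an outlier. The highest PLAT spot in pLUM was -5.63, on replicate 3, while the lowest in pLB was 2.53. No spot of the set was saturated.

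**Figure D2:**
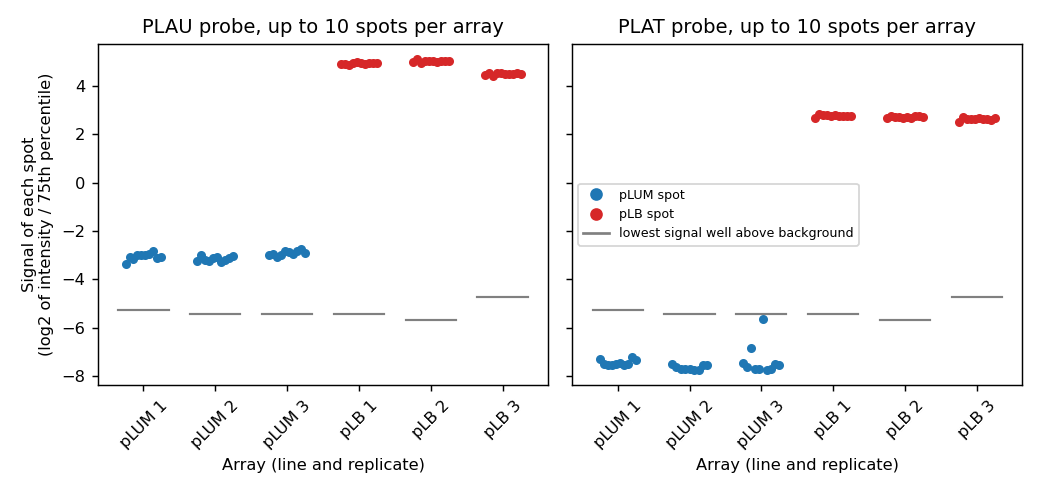
Signal of each spot (log2 of intensity over the 75th percentile) of the main PLAU probe and the PLAT probe on each array, in blue for pLUM and red for pLB, with a grey line at the lowest signal well above background on that array. PLAU spots lay above the line on all 6 arrays, and PLAT spots lay below it on the 3 pLUM arrays.

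PLAUR encodes the urokinase receptor, a lipid-anchored protein that holds urokinase on the cell. Its probe (NM_001005377, sequence above) gave -5.57, -6.05 and -4.93 in pLUM and -2.65, -2.53 and -3.33 in pLB. Only pLUM replicate 3 was well above background in that line, and all 3 pLB arrays were. The means were -5.52 ± 0.56 and -2.83 ± 0.43 (SD, n = 3 each). The difference was 2.68 (SE 0.34, 95% interval 1.89 to 3.47, limma adjusted p = 0.000366), or 6.42-fold. It was not called with normexp, where the difference was 0.51 and the limma adjusted p was 0.24. Its intensities before scaling lay between 8.48 and 18.6 in pLUM and were 139, 121 and 44.8 in pLB.

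SERPINE2 encodes protease nexin-1, a serpin that inhibits thrombin, urokinase and plasmin. Its probe (NM_006216, sequence above) gave -7.36, -7.71 and -7.69 in pLUM and 0.45, 0.99 and 0.93 in pLB. As for PLAT, no pLUM array was well above background and all 3 pLB arrays were. The pLB mean was 0.79 ± 0.29 (SD, n = 3), and SERPINE2 was at least 71.9-fold higher in pLB (limma adjusted p = 3.94e-07). With normexp the bound was at least 11.4-fold. An inhibitor was thus called higher in pLB beside both activators.

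PLG encodes plasminogen, the zymogen on which urokinase and tissue plasminogen activator act and which is made mainly by the liver. Its probe, at chr6:161174211-161174270 on the plus strand (NM_000301), was not well above background on any of the 6 arrays. The signals were -7.35, -7.56 and -7.59 in pLUM and -7.53, -7.92 and -6.91 in pLB. Values below background have no order, and no fold is given for PLG.

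F3 encodes tissue factor, the membrane receptor of factor VII. Its probe, at chr1:94995080-94995139 on the minus strand (NM_001993), gave -2.53, -2.48 and -2.46 in pLUM and -0.33, -0.22 and -0.21 in pLB. All 6 arrays were well above background, and the groups did not overlap. The means were -2.49 ± 0.04 and -0.26 ± 0.07 (SD, n = 3 each). The difference was 2.23 (SE 0.15, 95% interval 1.89 to 2.58, limma adjusted p = 1.66e-05), or 4.70-fold. With normexp it was 1.43, or 2.69-fold, and was still called.

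TFPI and TFPI2 encode Kunitz-type inhibitors, the first directed at factor Xa and the tissue factor complex and the second at plasmin and related proteases. TFPI was carried by 3 probes. Those for NM_001032281 (chr2:188343406-188343465) and ENST00000481132 (chr2:188349518-188349577) were not well above background on any array. The first of them gave -7.31, -7.48 and -7.42 in pLUM and -5.62, -6.38 and -6.53 in pLB, and the second lay between -7.80 and -6.88 on all 6 arrays. The TFPI probe for NM_006287 (chr2:188329008-188329067) was well above background on 1 array, pLUM replicate 2, with -3.03 and an intensity of 68.8. On the other 5 arrays that probe had intensities of 3.27 to 4.76. The TFPI2 probe (NM_006528, chr7:93516575-93516634, minus strand) gave -6.66, -7.76 and -6.54 in pLUM and -7.73, -8.01 and -7.07 in pLB and was below background throughout. No direction is given for TFPI or TFPI2.

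THBS1 encodes thrombospondin 1. Its main probe, at chr15:39888831-39888890 on the plus strand (NM_003246), gave -0.28, -0.55 and -0.93 in pLUM and 0.14, 0.07 and 0.16 in pLB. The gene was well above background on all 6 arrays and thus measured in both lines. The means were -0.59 ± 0.33 and 0.12 ± 0.04 (SD, n = 3 each). The difference was 0.71 (SE 0.20, 95% interval 0.24 to 1.19, limma adjusted p = 0.0175), or 1.64-fold, and its interval reached from well under to just over 2-fold. The adjusted p lay between 0.0137 and 0.0831 over the alternatives tried.

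The other THBS1 probe, whose sequence is given above, gave -2.76, -2.72 and -2.54 in pLUM and -2.46, -2.23 and -1.70 in pLB. The difference was 0.54 (SE 0.23, limma adjusted p = 0.0732), or 1.45-fold. Without pLB replicate 3 it was 0.32 (limma adjusted p = 0.122). Neither THBS1 probe was called, and both had a higher mean in pLB.

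**Figure D3:**
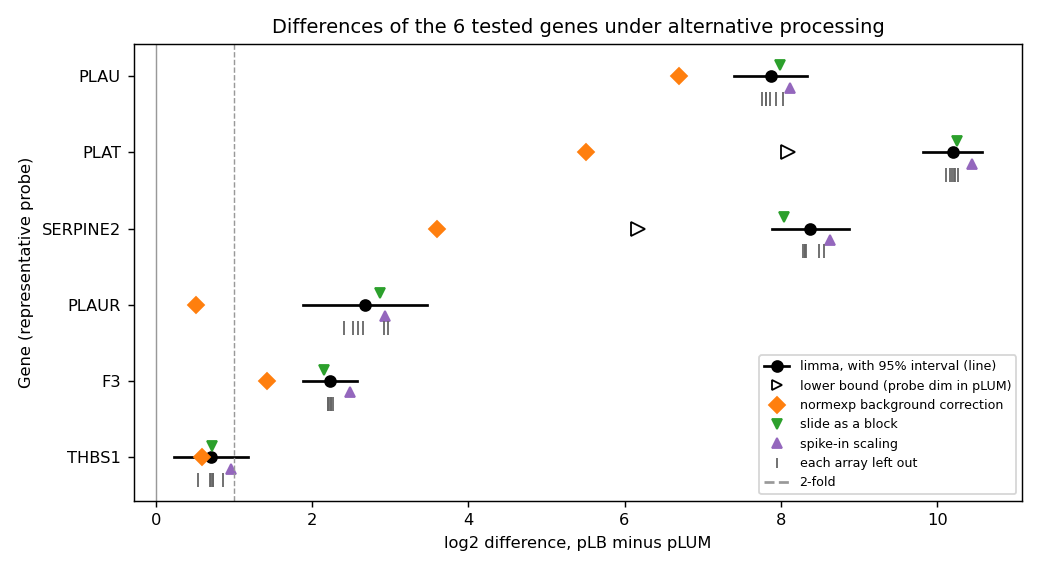
Difference in log2 signal (pLB minus pLUM) of the main probe of each of the 6 tested genes: black points and lines give the limma estimate and its 95% interval, white arrows the lower bound for genes not well above background in pLUM, coloured marks the alternatives of processing and grey ticks the values with each array left out. Normexp lowered each difference, to 0.51 for PLAUR and 6.69 for PLAU, and leaving out an array left PLAU between 7.76 and 8.03.

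The difference between lines within the shared slide rested on pLB replicate 1 against 3 pLUM arrays, and equals the fit with slide as a block. It was 7.98 for PLAU, 2.87 for PLAUR, 2.16 for F3 and 0.73 for THBS1, where the limma adjusted p was 0.0831. PLAT at 10.26 and SERPINE2 at 8.04 were called within the slide as well, as fitted values and not as bounds. The other THBS1 probe fell to 0.21. An exact two-sided permutation test of 3 arrays against 3 cannot give less than p = 0.1, which was its value for each of the 8 tested probes.

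Markers of other cells that make these proteins were read beside these results. The arrays held RNA of cultured and sorted human lines. Host cells of the xenografts would be mouse cells, while the probes are placed on the human genome. The markers therefore cannot decide whether such cells were present. Of 7 fibroblast genes, 5 were below background on all 6 arrays, among them DCN, LUM, PDGFRA and PDGFRB, and the summed linear level of the list was 0.77 to 0.97 in pLUM and 0.79 to 1.15 in pLB. COL1A2 was below background in pLUM and at least 11.5-fold higher in pLB, and COL1A1 was above background in both lines. COL1A1 had the highest means of the list, -0.27 in pLUM and -0.83 in pLB, and thus largely set the summed level. The COL1A2 bound was at least 2.26-fold with normexp. Of 6 endothelial genes, 4 were below background throughout, including PECAM1, KDR and TEK, with summed levels of 0.0834 to 0.120 in pLUM and 0.104 to 0.223 in pLB. Of the 5 leukocyte genes 0 were below background on all arrays, and of the 4 platelet genes likewise 0. By their main probes PTPRC, CD14, CD68, ITGA2B and GP9, and CDH5 of the endothelial list, were well above background on every array of both lines. The probes of PTPRC disagreed. Another PTPRC probe was also above background on every array and was called 2.30-fold lower in pLB (limma adjusted p = 0.00453). Further PTPRC probes were not well above background on any array. The summed level was 0.213 to 0.355 in pLUM and 0.293 to 0.426 in pLB for 5 leukocyte genes, of which CD68 was called 2.87-fold higher (limma adjusted p = 0.000391), with a difference of 0.09 under normexp. It was 0.364 to 0.433 and 0.125 to 0.222 for 4 platelet genes, of which ITGA2B was called lower. VWF, on the endothelial list, is given with the coagulation genes. The part of the markers that differed in the results above was not tested. In bulk RNA, fewer cells that express a gene and less RNA per cell cannot be told apart.

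More listed genes of the wider plasminogen pathway were called higher than lower in pLB. This list, and those of coagulation and thrombospondin genes below, were chosen with earlier results of these data known. From a list of 23 other genes, 16 were tested, of which 8 were called higher, 3 lower and 5 neither. This is 50% higher and 18.8% lower, beside 22.7% and 23% over all genes. With normexp, 6 were called higher and 3 lower. The median difference was 1.24, against 0.04 over all 17670 genes. MRC2, an endocytic collagen receptor that associates with the urokinase receptor, had a mean of -2.60 ± 0.34 in pLUM and 4.32 ± 0.23 in pLB and was 121-fold higher, a log2 difference of 6.92, or 5.91 with normexp. SERPINB8, a serpin, was 8.99-fold higher, or 2.48-fold with normexp. S100A10, a plasminogen-binding partner of annexin A2, rose from 2.67 ± 0.14 to 5.64 ± 0.13, or 7.86-fold. ANXA2, annexin A2 itself, had 1.84 ± 0.44 in pLUM and 4.39 ± 0.38 in pLB and was 5.82-fold higher, and its other probe was at least 4.66-fold higher.

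LRP1, which clears activator and inhibitor complexes from the cell surface, was 6.08-fold higher by its main probe. Its other probe differed by 0.39 (limma adjusted p = 0.244), and with normexp the main probe was not called either. In the other direction HPN, the transmembrane protease hepsin, had 0.14 ± 0.04 in pLUM and -4.32 ± 0.39 in pLB and was 21.9-fold lower, or 7.19-fold with normexp. C9orf46, the older symbol of the plasminogen receptor gene PLGRKT, and SERPINB6, an intracellular serpin, were the other lower genes, at 3.60-fold and 3.23-fold, and were named after their values were seen. The inhibitors SERPINB2 and SERPINF2 were among 7 listed genes that were not tested.

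From 21 coagulation genes, 9 were tested, of which 6 were called higher, 1 lower and 2 neither. Of those tested, 66.7% were higher and 11.1% lower, beside 22.7% and 23% over all genes. THBD, PROS1 and VWF passed the filter through the pLB arrays alone and thus had to differ. With the filter set at all 6 arrays, F2RL1, F2RL3, F7, PROCR and GGCX were tested and 2 genes were called higher. At that filter, 3741 of 18866 probes of the whole array were called higher. The median of 4.11, or 3.03 with THBD, PROS1 and VWF at their bounds, is a description of the genes that passed. PROCR, the protein C receptor, had -2.86 ± 0.12 in pLUM and 3.65 ± 0.16 in pLB, 91.1-fold higher, or 44.4-fold with normexp. THBD, thrombomodulin, was at least 28.7-fold higher, or at least 5.00-fold with normexp, and PROS1, protein S, at least 8.19-fold, although PROS1 was not called with normexp. These belong to the anticoagulant protein C pathway. Among thrombin and protease receptors, F2RL1 (PAR2) was 64.1-fold higher, or 28.7-fold with normexp. F2R (PAR1) was called higher, but by its main probe 1 of 3 pLUM arrays passed the background flag and its fitted 17.3-fold became 3.25-fold with normexp. The other F2R probe was dim on all pLUM arrays and at least 8.62-fold higher in pLB.

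F7, which encodes the ligand of tissue factor, went the other way from F3. Its signals were 1.05, 0.58 and 1.35 in pLUM and -5.12, -4.62 and -3.82 in pLB. F7 was 45.7-fold lower in pLB (limma adjusted p = 1.53e-05), or 14.3-fold with normexp, and it was the single listed coagulation gene called lower. VWF, named after its value was seen, was the sixth gene called higher, at least 1.80-fold, and was not called with normexp or with slide as a block. Its bound is under the 2-fold threshold, and its other probe was not well above background on any array. The count of coagulation genes called higher was also 5 instead of 6 with quantile normalization, with the signal floor, without pLUM replicate 3 and without pLB replicate 2. F2, F5, F10 and 9 other listed factors or inhibitors were not tested.

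From 16 genes of the thrombospondin family, thrombospondin receptors and proteins with thrombospondin repeats, 13 were tested, with 5 called higher, 4 lower and 4 neither, and a median of 0.63. The shares, 38.5% higher and 30.8% lower, stand beside 22.7% and 23% over all genes, and THBS2 passed the filter through the pLB arrays alone. THBS2, the paralog closest to THBS1, was not well above background in pLUM, with -6.15, -7.38 and -6.22, and gave 2.67, 2.79 and 2.70 in pLB. The bound was at least 274-fold in favour of pLB (limma adjusted p = 1.17e-06), or at least 34.3-fold with normexp, and its second probe was at least 12.5-fold higher. COMP, another member of the family, was 2.98-fold higher but was not called with normexp.

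Of the receptors, CD36 fell from 2.40 ± 0.36 in pLUM to -3.27 ± 0.10 in pLB, 50.9-fold lower, or 25.3-fold with normexp. ITGA3 was 21.2-fold higher, or 11.9-fold with normexp, and ITGB1, its partner in an integrin, 4.90-fold. THSD1, a membrane protein with a thrombospondin repeat, was 4.68-fold lower. CD47, a further receptor of thrombospondin 1 that was named after its value was seen, differed by 0.07 and was not called. THSD4 and THBS3, named on the same basis, were 2.83-fold and 2.24-fold lower, and THBS4 was 2.03-fold higher but was not called with normexp or with slide as a block.

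**Figure D4:**
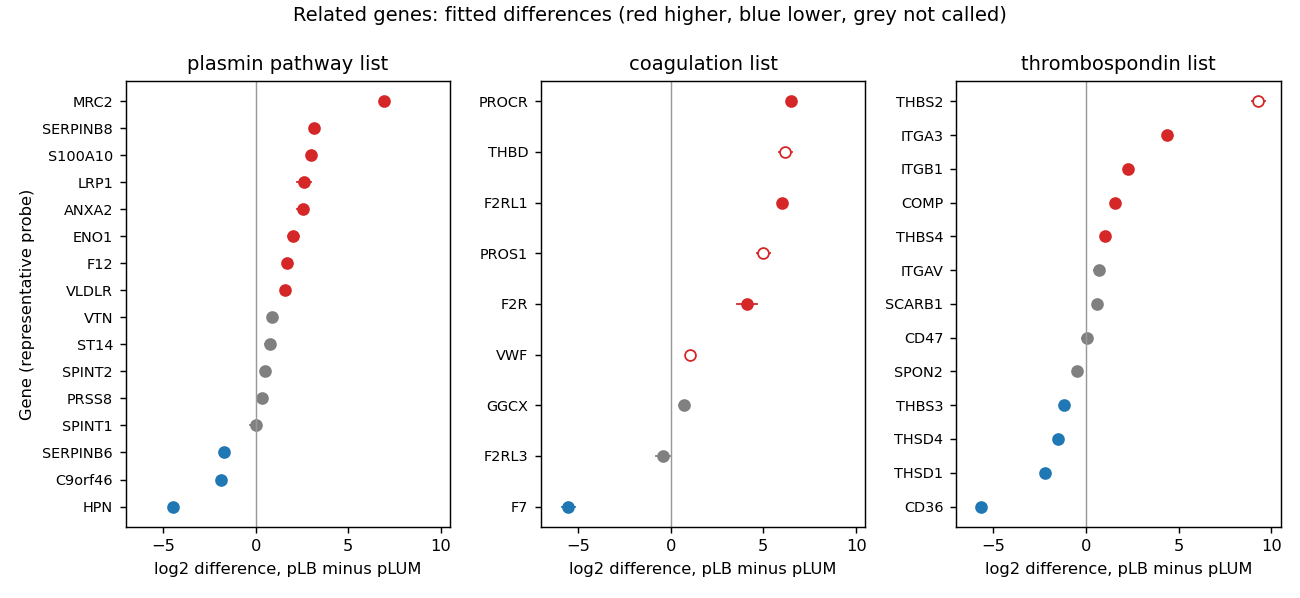
Difference in log2 signal (pLB minus pLUM, line: SE) of the tested genes of the plasmin pathway, coagulation and thrombospondin lists, in red where called higher, blue where called lower and grey where not called; open circles mark genes not well above background in one line, whose fitted value is not a bound. Higher genes outnumber lower ones by 8 to 3 in the plasmin pathway list, 6 to 1 in the coagulation list and 5 to 4 in the thrombospondin list. Over all genes tested, 22.7% were called higher and 23% lower. THBD, PROS1, VWF and THBS2 passed the filter through the pLB arrays alone.

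Over the 6 arrays, the genes whose centred signals lay nearest to PLAU were LAMB3, a laminin chain, HMCN1 and TPRXL, with root mean square distances of 0.14, 0.17 and 0.17 on the log2 scale among 17665 genes searched. Their own differences were 7.88, 7.81 and 7.72. Nearest to THBS1 were ARAF2P, WASL and MRPS6, at 0.02, 0.05 and 0.05. With 6 arrays in 2 groups, such a distance reflects mostly the size of the difference between the lines.

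Promoter windows of the set were read from RefSeq GRCh38.p14, with 250 bases before and 50 after each start site. Windows were held for 8 of the 9 genes, called or not, 11 in all, and PLAT had none. TGANTCA, the AP-1 response element with its central base left free and the same on both strands, was found in 3 windows, those of PLAUR, F3 and TFPI2, and in 7.71% of 35116 windows of all genes. The F3 window held it at -223 and -210 from the start site, that of PLAUR at -186 and that of TFPI2 at -87. GGGCGG, searched on both strands, was in 6 of the 11 windows and in 45% of all. TATAAA, likewise on both strands, was in 1, that of F3 at -28, and in 11.5% of all. The stretches around TGANTCA are shown because they differ in what was measured: F3 and PLAUR were called higher in pLB, while TFPI2 was below background in both lines. Capitals mark the matches, and the positions are chr19:43670324-43670380, chr1:94541938-94542007 and chr7:93890809-93890865, each on the minus strand.
PLAUR: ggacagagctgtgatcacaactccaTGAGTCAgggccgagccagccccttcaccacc
F3: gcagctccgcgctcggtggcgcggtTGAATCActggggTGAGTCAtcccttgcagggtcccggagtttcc
TFPI2: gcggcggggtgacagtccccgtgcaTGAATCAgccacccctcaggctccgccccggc

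No window of PLAU, SERPINE2 or THBS1 held TGANTCA. PLAU has 2 windows, of which one held GGGCGG at 3 positions and the other at none, and the THBS1 window held it at 4 positions. These are matches of letters and not measurements of binding.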

How the data were processed

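RNA of 3 pLUM and 3 pLB samples was hybridized to 1-colour (Cy3) Agilent arrays. The authors deposited Feature Extraction 10.10.1.1 output, in which each spot has a linear intensity, background-corrected and detrended within the array and not normalized between arrays; flags for outliers, saturation and signal well above background were deposited with it. Gene names and positions are those of the files (hg19). Partek is named in the submitters' processing notes.

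Here, control spots and spots flagged as outliers were removed, each array was divided by its 75th percentile of intensity, log2 was taken and replicate spots were averaged per probe. Probes with a signal well above background on 3 or more arrays were tested with limma 3.58.1 (lmFit and eBayes) in R 4.3.3, with Benjamini-Hochberg adjustment over 23105 probes. The tested probe with the highest mean stood for a gene. Named were all 9 genes, up to 6 called genes with the largest differences per list, and the 3 nearest patterns of PLAU and THBS1. One gene of the plasmin pathway list is not reported here and is left out of its counts. Genes and lists were chosen with earlier results of these data known. The alternatives were other scalings (quantile, median, spike-in), normexp with an offset of 50, other filters and a signal floor, the mean of the probes, slide or replicate number as a block, the methods' t-test, no fold threshold and each array left out. Protein sequences were not used here: the probes whose sequence is printed were picked by hand rather than by a lookup in a protein table. The E plus P treated T47Dco cells of the methods were not analysed here.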

Additional observations from a re-analysis of the deposited data

How the results depend on the processing

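PLAU, PLAT, SERPINE2 and F3 kept their direction and their call under every alternative that gave them a value, with log2 differences of 6.69 to 8.19, 5.51 to 10.45, 3.60 to 8.63 and 1.43 to 2.49. Those of PLAT and SERPINE2 are fitted values against pLUM signals below background, with bounds of 8.09 and 6.17. PLAUR ranged from 0.51 to 2.97 and lost its call with normexp alone. THBS1 ranged from 0.54 to 0.96 and was called only with no fold threshold, at 0.71. With the filter set to a signal well above background on each of the 6 arrays, 2 of these genes (2 probes) were called higher instead of 5 (6 probes), since PLAT, SERPINE2 and PLAUR were no longer tested, and 2 coagulation genes were called higher instead of 6. With normexp, 3 thrombospondin genes were called higher instead of 5, and 3004 probes of the whole array against 5054. The median gene moved by 0.25 with spike-in scaling, by -0.24 with normexp and by under 0.1 with quantile and median scaling, and the share of calls that were higher was 58.4% with spike-in scaling and 42.7% with normexp, against 48.0%. Without the filter on dim probes, the TFPI probe for NM_001032281 passed the test (limma adjusted p = 0.0104) although it was below background on all arrays.

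Replicate numbers did not pair the samples: deviations of same-numbered arrays correlated at -0.27, -0.09 and -0.22. With a replicate block, 5 of the genes were called higher, as without it, and over the array 4986 probes were called higher and 5383 lower.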
